A study of Saccharomyces cerevisiae with 6 samples.

Results

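The genes described here are 33 genes of Saccharomyces cerevisiae known from growth without oxygen. They are 20 genes of the PAU (seripauperin) family, 6 genes of the DAN/TIR group of cell wall mannoproteins and 7 other hypoxic genes, out of 6388 genes in the deposited tables. The PAU genes were found by their systematic names and the others by the gene names in those tables; the 4 PAU genes on chromosome XII were kept apart. The PAU family was chosen by measured values, its mutant over wild-type ratios on these arrays, and earlier results of both phases were known when the list was drawn up. The members' ratios are therefore given as a description, and the calls of the fit are set beside the share called over all genes.

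The study compared a wine yeast with a derivative lacking KNR4 (also named SMI1), whose product takes part in regulating how the wall is built. EC1118 is an industrial wine strain and served as the wild type, and EKD-13 is EC1118 with both copies of KNR4 deleted; the labels name no independently built second clone. Both were grown at 28 °C in 1 L fermentations of MS300, a synthetic medium, and whole-culture RNA was taken at 10 g of released CO2 (mid-exponential phase) or at 70 g (stationary phase). Each phase had 3 spotted two-colour arrays, each with RNA of 1 mutant and 1 wild-type fermentation. Array 2 of each phase carried the mutant RNA in Cy3, and the other arrays carried it in Cy5. The vessel names show that some fermentations were sampled in both phases, and on stationary array 2 the labels place the RNAs of the 2 strains in different fermentation sets.

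Seripauperins are small proteins, poor in serine, whose many near-identical genes lie mostly close to chromosome ends. The family is known for being active in alcoholic fermentation and under anaerobiosis, and for being repressed by oxygen and heme. The DAN and TIR genes encode serine- and alanine-rich mannoproteins that take the place of the aerobic mannoproteins Cwp1 and Cwp2 in the wall of anaerobic cells. Rox1 and Mot3, together with the Cyc8-Tup1 co-repressor, keep genes of this kind silent when heme is made, and Upc2 activates several of them when sterols run short.

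All values are log2 ratios of mutant over wild type. The labels' dyes set the direction, and KNR4 itself was lower, since the authors' deposited table listed it at -1.89 (adjusted p = 2.73e-04) in mid-exponential and -1.74 (adjusted p = 2.45e-04) in stationary phase. Between 53.1 and 85.6% of the spots carried a ratio on a given array, and precision is limited by having 3 arrays per phase. Of the 33 members 32 were measured on 2 or more arrays in both phases and were tested among 4289 genes. COX5B, for the hypoxic subunit Vb of cytochrome c oxidase, was the one left out: it had -2.85 on mid-exponential array 3, 3.38 and -4.61 on stationary arrays 2 and 3, and a dim spot (mean log2 intensity of 6.64 in the authors' deposited table). The 2 spots of a member lay close together, with a median difference between 0.03 and 0.09 on the 6 arrays. The largest differences were 2.40 for DAN4 on mid-exponential array 2, 1.39 for PAU22 on stationary array 3 and 1.03 for PAU21 on stationary array 2. The RNA came from a diploid culture by the labels' 2 gene copies. Markers of haploid cells such as STE2, STE3 and MFA1 had mean log2 intensities of 6.52 to 7.11 in mid-exponential phase, at the low end of the range of 6.33 to 15.9 over all genes in the authors' deposited table. None of the 10 haploid markers had a ratio on all 3 arrays of both phases. On at least 2 arrays, 4 of them had a ratio in mid-exponential and 2 in stationary phase. The 2 were STE6, at 2.30 and 1.56 on stationary arrays 1 and 3, and MF(ALPHA)2, at -1.37 and -0.415 on the same arrays.

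**Figure D1:**
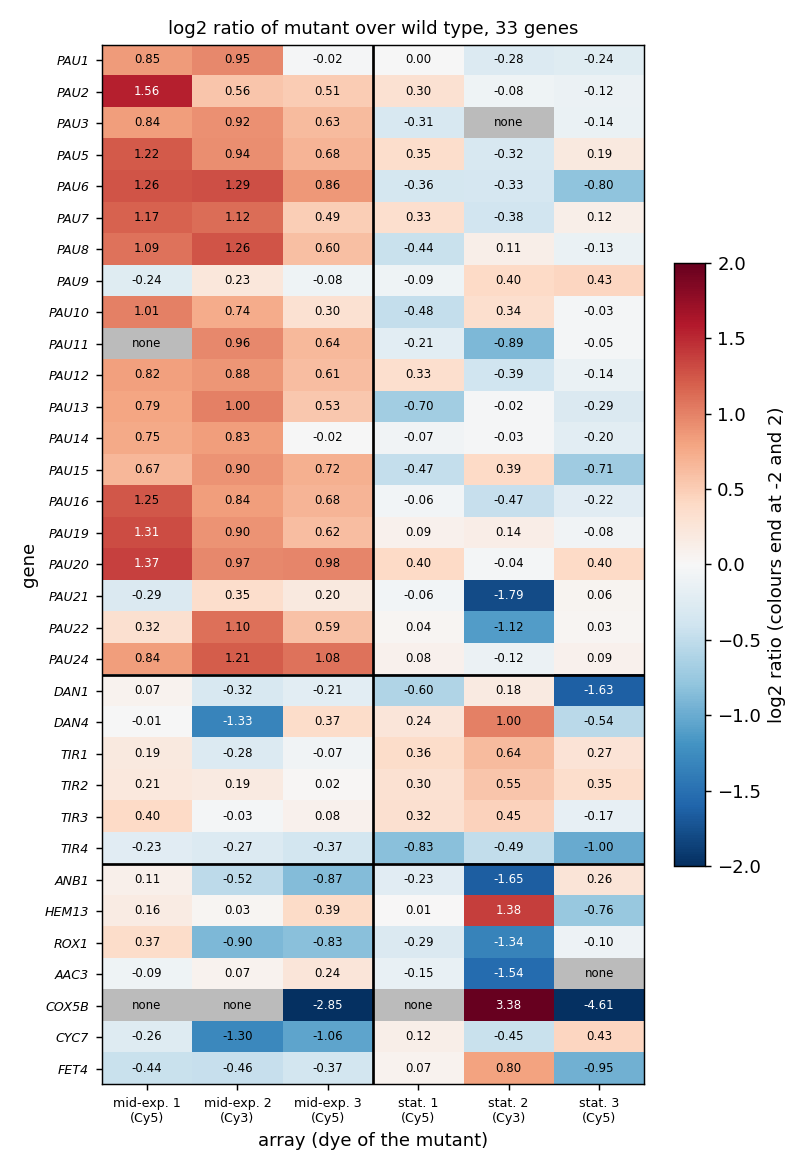
Log2 ratio of mutant over wild type for each of the 33 genes (rows) on each of the 6 arrays (columns, with the dye of the mutant); grey cells had no ratio, and colours end at -2 and 2. The PAU block is above 0 on nearly every mid-exponential array and close to 0 in stationary phase, while the DAN/TIR and hypoxic blocks have both signs.

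In mid-exponential phase the PAU genes stood higher in the mutant almost as a block. Their median was 0.80, a 1.74-fold ratio, and 19 of the 20 had a mean above 0, against a median of -0.01 and 48.2% above 0 over all 4289 genes. The array medians of the family were 0.85, 0.93 and 0.61, a mean of 0.80 ± 0.17 (SD, n = 3). The mutant was in Cy3 on array 2 (0.93) and in Cy5 on arrays 1 and 3. With 1 array in Cy3, dye cannot be told apart in this phase from that array and its fermentations. Of the 19 PAU genes with a ratio on all 3 arrays 15 were above 0 on each of them, where the share over all genes was 24.9%. This is the contrast on which the family was noticed, so nothing more is read from these counts. Because RNA of whole cultures was measured, a larger share of cells that express these genes and more RNA per cell cannot be told apart.

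PAU6, PAU20 and PAU24 (also named DAN3) had the highest means among the PAU genes outside chromosome XII measured on all 6 arrays. PAU6 was at 1.26, 1.29 and 0.86 on mid-exponential arrays 1 to 3, a mean of 1.14 ± 0.24 (SD, n = 3). PAU20 was at 1.37, 0.97 and 0.98, a mean of 1.11 ± 0.23 (n = 3). PAU24 was at 0.84, 1.21 and 1.08, a mean of 1.04 ± 0.19 (n = 3). No single array was the high one in all 3 genes.

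The lowest means belonged to PAU9, PAU21 and PAU14. PAU9 was at -0.24, 0.23 and -0.08, a mean of -0.03 ± 0.24 (n = 3). PAU21 was at -0.29, 0.35 and 0.20, a mean of 0.08 ± 0.33 (n = 3). These 2 genes had both signs and did not stand apart from 0. PAU14 was at 0.75 and 0.83 on arrays 1 and 2 but at -0.02 on array 3, a mean of 0.52 ± 0.47 (n = 3). PAU1 had the same shape, with 0.85 and 0.95 on arrays 1 and 2 and -0.02 on array 3. Array 3 gave the lowest of the 3 values in 13 of the 19 genes measured on all of them.

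The other 14 PAU genes lay between these extremes, and 18 of the 20 had a mean above 0.5. PAU2 stood apart within its own arrays, at 1.56 on array 1 against 0.56 and 0.51 on arrays 2 and 3. PAU3 (0.80 ± 0.15), PAU12 (0.77 ± 0.14) and PAU15 (0.76 ± 0.12; n = 3 each) had the least spread between arrays. The SD over arrays ran from 0.12 to 0.59 in the family, with a median of 0.28, against 0.23 over all tested genes. The members are near-identical copies that may bind the same RNA, so 20 spots are not 20 independent measurements; how much each spot reads its own transcript was not tested.

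None of the 20 PAU genes passed an adjusted p under 0.05 in limma (lowest adjusted p = 0.091), where 0.21% of all genes passed. At an unadjusted p under 0.05, 17 of the 20 were higher, against 7.95% of all genes. The authors' deposited table called 17 of the 20 higher, against 5.67% of its genes, with a median log2 fold change of 0.68. In the refit with the arrays brought to one spread, 11 of the 20 passed, all as higher: PAU3, PAU5, PAU6, PAU7, PAU8, PAU12, PAU13, PAU16, PAU19, PAU20 and PAU24. Over all 4289 genes that refit called 177 in mid-exponential phase, 119 of them as higher.

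The 3 PAU genes that the authors' deposited table did not call were also the 3 dimmest of the family. PAU22, PAU9 and PAU21 had mean log2 intensities of 7.34, 7.47 and 7.91 and log2 fold changes of 0.19, -0.11 and 0.04 in that table. The other 17 had intensities of 8.85 or more and log2 fold changes of 0.46 or more in the authors' deposited table. PAU22 had array ratios of 0.32, 1.10 and 0.59, a mean of 0.67 ± 0.40 (n = 3), so it was not low in the array values. The part that weak signal has in these 3 ratios was not tested.

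**Figure D2:**
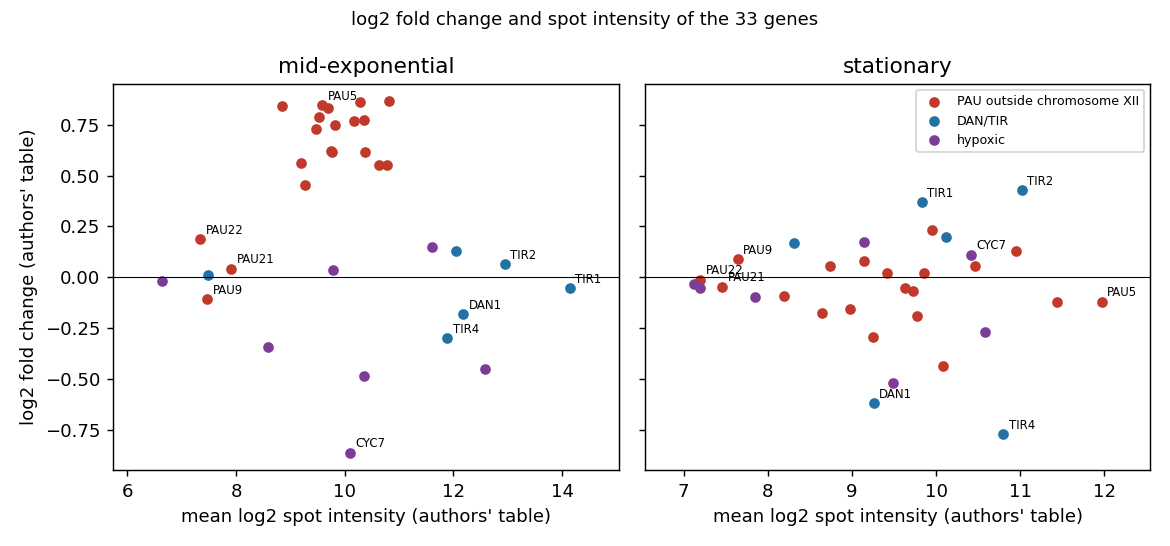
Log2 fold change of mutant over wild type (vertical axis) against the mean log2 spot intensity (horizontal axis) in the authors' deposited table, for the 33 genes in mid-exponential (left) and stationary phase (right). In mid-exponential phase 17 PAU genes form a cloud at 0.46 and above, and the 3 dimmest ones lie near 0; in stationary phase the cloud is centred near 0.

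In stationary phase the PAU genes lay around 0. The family's median was -0.13, close to the -0.02 of all genes, with 7 of 20 means above 0 where the share over all genes was 48.5%. The array medians were -0.06, -0.12 and -0.10, a mean of -0.09 ± 0.03 (SD, n = 3). No PAU gene was above 0 on all 3 stationary arrays, where 19.5% of all genes were, and 6 of the 19 measured on all of them were below 0 on each, where 19.9% of all genes were. None passed in limma (lowest adjusted p = 0.163; 4.76% of all genes passed), 1 was lower at an unadjusted p under 0.05, against 10.5% of all genes, and the authors' deposited table called none of the 20 (4.18% of its genes).

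That 1 gene was PAU6, at -0.36, -0.33 and -0.80 on stationary arrays 1 to 3, a mean of -0.50 ± 0.26 (n = 3). It was below 0 on each array, although it had the highest mean of the PAU genes outside chromosome XII in the earlier phase. PAU20 was again at the upper end, at 0.40, -0.04 and 0.40, a mean of 0.25 ± 0.25 (n = 3). PAU9 was at -0.09, 0.40 and 0.43, a mean of 0.25 ± 0.29, and PAU5 at 0.35, -0.32 and 0.19, a mean of 0.07 ± 0.35 (n = 3 each). Each of these 3 had both signs.

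PAU21 and PAU22, the other genes at the low end among those on all 6 arrays, had their low value on a single array. PAU21 was at -1.79 on array 2 but at -0.06 and 0.06 on arrays 1 and 3, a mean of -0.60 ± 1.04 (n = 3). PAU22 was at -1.12 on array 2 and at 0.04 and 0.03 on the others, a mean of -0.35 ± 0.67 (n = 3). The 2 spots differed by 1.03 for PAU21 on array 2 and by 1.39 for PAU22 on array 3. With the first spot of each gene alone the stationary means were -0.41 for PAU21 and -0.04 for PAU22. Both are among the dim spots, and array 2 is the one whose labels name different fermentation sets for mutant and wild type. The part of spot disagreement, weak signal or fermentation sets in these values was not tested. PAU11 (-0.21, -0.89 and -0.05) and PAU13 (-0.70, -0.02 and -0.29) were below 0 on each stationary array, with means of -0.38 ± 0.45 and -0.34 ± 0.34 (n = 3 each). The stationary mean lay between -0.5 and 0.5 in 19 of the 20 PAU genes, PAU21 being the exception.

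**Figure D3:**
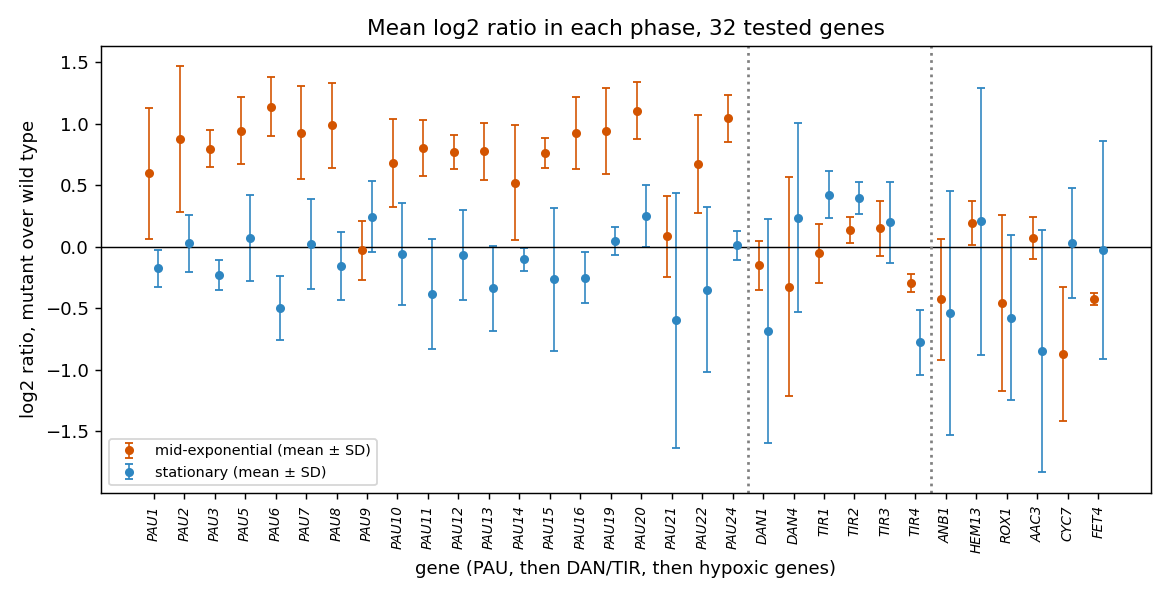
Mean log2 ratio of mutant over wild type with its SD over the arrays (n = 3, or 2 where an array had no ratio) for the 32 tested genes, in mid-exponential (orange) and stationary phase (blue). The PAU means lie mostly between 0.5 and 1.14 in the first phase and around 0 in the second; the DAN/TIR and hypoxic means show no such common step.

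The drop from mid-exponential to stationary phase ran through nearly the whole family. The stationary minus mid-exponential difference had a median of -0.90 over the 20 PAU genes, against 0.00 over all genes, and was below 0 in 19 of them, PAU9 (0.27) being the exception. Of the 18 PAU genes with a ratio on all 6 arrays 14 had each mid-exponential value above each stationary one, where the share over all such genes was 10.6%. The largest difference was that of PAU6, at -1.64 (limma adjusted p = 0.142). None of the 20 passed (0.117% of all genes did), and 14 were lower at an unadjusted p under 0.05, against 5.81% of all genes. In 5 members, PAU3, PAU6, PAU11, PAU13 and PAU16, every measured array was above 0 first and below 0 later, against 2.8% of all genes. The difference includes the ratios on which the family was noticed, so it is no separate evidence.

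The 4 PAU genes on chromosome XII, which are not members, had means above 0 in the first phase and on both sides of 0 in the second. PAU4 was at 1.84, 1.39 and 0.97 in mid-exponential phase (1.40 ± 0.43) and at 0.52, -0.11 and 0.04 in stationary phase (0.15 ± 0.33; n = 3 each). PAU23 (also named DAN2) was at 0.73 ± 0.29 and -0.31 ± 0.10, PAU17 at 0.79 ± 0.39 and 0.24 ± 0.40, and PAU18 at 0.67 ± 0.46 and -0.25 ± 0.43 (n = 3 each). Their medians were 0.76 and -0.05 in the 2 phases. None passed in limma in either phase, where 0.21 and 4.76% of all genes did. At an unadjusted p under 0.05, 4 of 4 were higher in mid-exponential phase, against 7.95% of all genes, and none differed in stationary phase. The authors' deposited table called 4 of 4 higher in the first, against 5.67% of its genes, and none in the second. These genes belong to the family chosen by these ratios and may bind the same RNA, so they are no separate evidence. The part of chromosome XII in their ratios was not tested.

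Since PAU genes lie near chromosome ends, their neighbours were examined. The 20 members sit on 15 chromosomes, and 17 of them have at most 6 protein-coding genes between them and the chromosome end; PAU2, PAU5 and PAU7 lie farther in. For each PAU gene up to 5 protein-coding genes on either side were taken, without other PAU genes, which gave 93 tested neighbours. In mid-exponential phase the neighbours had a median of 0.04, and 50 of 93 were above 0. The PAU gene was above the median of its own neighbours in 18 of 20 cases, PAU9 and PAU20 being the exceptions. The family was chosen by these ratios and its neighbours were not, so this count is a description and no test of position.

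PAU8 on chromosome I, with no gene between it and the chromosome end, stood at 0.99 while its neighbours had a median of -0.03. PAU19 on chromosome XIII and PAU16 on chromosome XI, also last genes, stood at 0.94 and 0.92 with neighbours at -0.14 and 0.46. The highest neighbour medians were those of PAU20 (2.07, a single tested gene) and PAU24 (0.73, 2 tested genes). PAU5, which lies 45 genes inside chromosome VI, stood at 0.95 with neighbours at 0.05. PAU1 on chromosome X was close to its neighbours, at 0.60 against 0.57. One of these is VTH2, of a vacuolar sorting receptor family, at 1.08 in the array ratios.

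None of the 93 neighbours passed in limma in mid-exponential phase, and the authors' deposited table called 5 higher (VTH2, MAL31, COS2, ECM34 and COS8), against 5.67% of its genes, and 2 lower (ADE1 and GTT1), against 4.63%. In stationary phase the neighbours had a median of 0.07, and 7 PAU genes were above their own neighbours' median. Of the 93 neighbours 7 passed there in limma, against 4.76% of all genes. KTD1 (2.06), GIT1 (2.35), PAD1 (0.96), FDC1 (0.96), IMA1 (1.68) and VTH2 (2.35) were higher and GLY1 (-1.06), the threonine aldolase gene, was lower. No gene at all passed in stationary phase with the array number as a block or with the phase fitted alone, so these 7 calls are lost there. The authors' deposited table called GIT1 and YAR010C higher and GLY1, GAT1 and CSS1 lower in that phase, 5 of 93 against 4.18% of its genes.

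**Figure D4:**
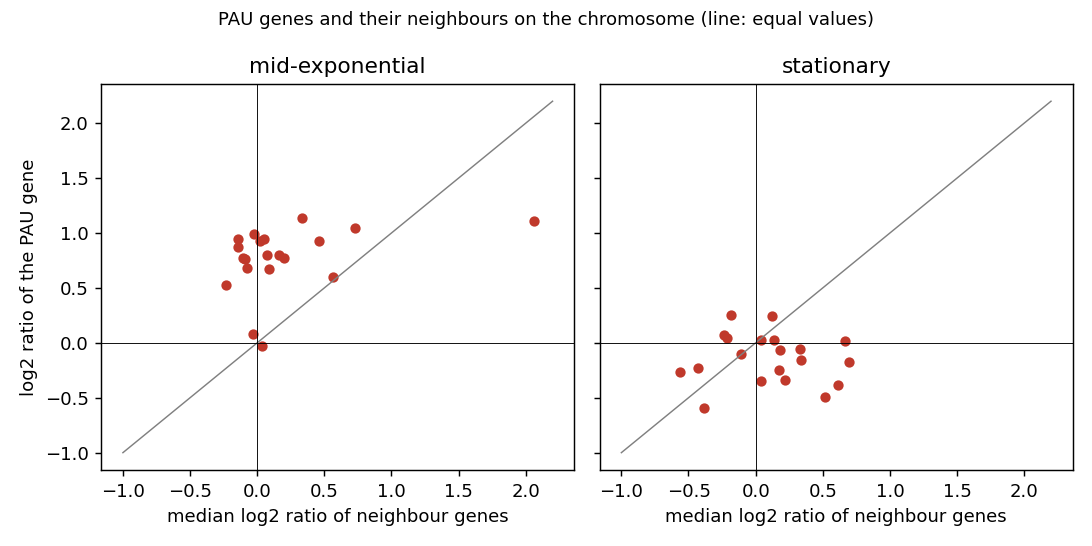
Log2 ratio of each of the 20 PAU genes (vertical axis) against the median log2 ratio of its neighbours in gene order (horizontal axis), in mid-exponential (left) and stationary phase (right); the line marks equal values. In mid-exponential phase 18 of the 20 points lie above the line, in stationary phase 7.

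The DAN/TIR genes, which also encode anaerobic mannoproteins, lay on both sides of 0. Their mid-exponential median was -0.10 over 6 genes, with array medians of 0.13, -0.28 and -0.02. None passed in limma (lowest adjusted p = 0.503), where 0.21% of all genes did. None had an unadjusted p under 0.05, against 13.3% of all genes, and the authors' deposited table called none, against 10.3% of its genes. With 6 genes, counts of 0 do not set the group apart from these shares. The difference between the PAU and DAN/TIR groups was not tested, and the values stand side by side.

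TIR1, TIR2 and TIR3 encode wall mannoproteins induced by cold shock or lack of oxygen. TIR1 was at 0.19, -0.28 and -0.07 in mid-exponential phase (-0.05 ± 0.24) and at 0.36, 0.64 and 0.27 in stationary phase (0.42 ± 0.19; n = 3 each). TIR2 was at 0.21, 0.19 and 0.02 in the first phase (0.14 ± 0.10) and at 0.30, 0.55 and 0.35 in the second (0.40 ± 0.13; n = 3 each). For both genes each stationary value lay above each mid-exponential one, where the share over all genes was 10.9%. TIR3 was at 0.40, -0.03 and 0.08 and then at 0.32, 0.45 and -0.17, with means of 0.15 ± 0.22 and 0.20 ± 0.33 (n = 3 each), so its phases overlapped.

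TIR4, which is needed for anaerobic growth, went the other way. It was at -0.23, -0.27 and -0.37 in mid-exponential phase (-0.29 ± 0.07) and at -0.83, -0.49 and -1.003 in stationary phase (-0.77 ± 0.26; n = 3 each). TIR4 was below 0 on all 6 arrays and did not pass in stationary phase (limma adjusted p = 0.054). It passed as lower when genes missing from any array were left out, with the first spot of each gene alone, and without stationary array 2. Over all genes those fits called 63, 71 and 153 as lower in stationary phase. The authors' deposited table called TIR4 lower (-0.77, adjusted p = 0.0096) and TIR2 higher (0.43, adjusted p = 0.016) in stationary phase, 2 of 6 genes against 4.18% of all. TIR4 and TIR2 are next to each other on chromosome XV.

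DAN1 and DAN4, neighbours on chromosome X, varied more from array to array. DAN1 was at 0.07, -0.32 and -0.21 in mid-exponential phase (-0.15 ± 0.20) and at -0.60, 0.18 and -1.63 in stationary phase (-0.68 ± 0.91; n = 3 each). DAN4 was at -0.01, -1.33 and 0.37 (-0.32 ± 0.89) and at 0.24, 1.00 and -0.54 (0.24 ± 0.77; n = 3 each). Both had each sign in each phase. The 2 spots of DAN4 differed by 2.40 on mid-exponential array 2, so its value there rests on spots that disagreed. With the first spot of each gene alone DAN4 had a mid-exponential mean of 0.02, and the DAN/TIR median was -0.02. The stationary median of the 6 DAN/TIR genes was 0.22, with array medians of 0.27, 0.50 and -0.35. None passed in limma in stationary phase, where 4.76% of all genes did. At an unadjusted p under 0.05 TIR1 and TIR2 were higher (13.5% of all genes) and TIR4 lower (10.5%).

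**Figure D5:**
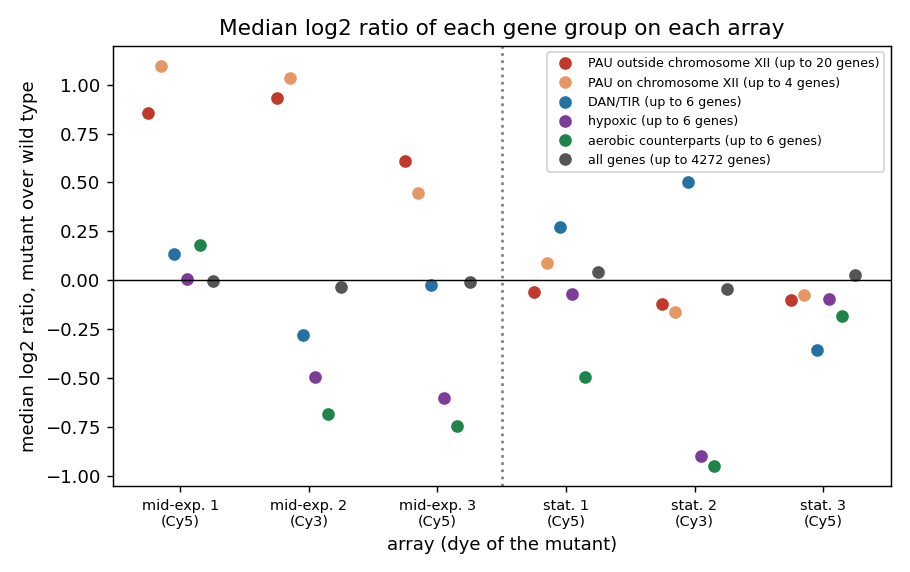
Median log2 ratio of mutant over wild type (vertical axis) of each gene group on each of the 6 arrays (horizontal axis, with the dye of the mutant); points of an array are set side by side for legibility. Both PAU groups lie at 0.45 or above on the mid-exponential arrays, and the hypoxic genes and the aerobic counterparts are lowest on mid-exponential arrays 2 and 3 and stationary array 2.

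The remaining hypoxic genes had medians below 0, with both signs among arrays. Their median was -0.43 in mid-exponential and -0.28 in stationary phase over 6 tested genes, with array medians of 0.01, -0.49 and -0.60 and then -0.07, -0.90 and -0.10. None passed in limma in either phase (lowest adjusted p = 0.229), where 0.21 and 4.76% of all genes did. At an unadjusted p under 0.05 CYC7 was lower in mid-exponential phase (5.34% of all genes). No other hypoxic gene had such a p in either phase. The authors' deposited table called 1 of 7 lower in the first phase, against 4.63% of its genes, and none in the second, against 4.18%.

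That gene was CYC7, for the hypoxic isoform of cytochrome c. It was at -0.26, -1.30 and -1.06 in mid-exponential phase (-0.87 ± 0.54) and at 0.12, -0.45 and 0.43 in stationary phase (0.03 ± 0.45; n = 3 each), and the authors' deposited table listed it at -0.86 (adjusted p = 0.0050) and 0.11. ROX1, the repressor of hypoxic genes, was at 0.37, -0.90 and -0.83 (-0.46 ± 0.71) and then at -0.29, -1.34 and -0.10 (-0.58 ± 0.67; n = 3 each). ANB1, the anaerobic form of translation factor eIF5A, was at 0.11, -0.52 and -0.87 (-0.43 ± 0.49) and then at -0.23, -1.65 and 0.26 (-0.54 ± 0.99; n = 3 each). In all 3 genes array 1 was the high one in mid-exponential phase and array 2 the low one in stationary phase.

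The genes left differed from this in one phase or the other. FET4, a low-affinity iron transporter, was at -0.44, -0.46 and -0.37 in mid-exponential phase (-0.43 ± 0.05) and at 0.07, 0.80 and -0.95 in stationary phase (-0.03 ± 0.88; n = 3 each). HEM13, for the oxygen-requiring coproporphyrinogen oxidase of heme synthesis, was at 0.16, 0.03 and 0.39 (0.20 ± 0.18) and then at 0.01, 1.38 and -0.76 (0.21 ± 1.08; n = 3 each). AAC3, the anaerobic ADP/ATP carrier, was at -0.09, 0.07 and 0.24 (0.07 ± 0.17, n = 3) and at -0.15 and -1.54 on the 2 stationary arrays that measured it. FET4 was below 0 on each mid-exponential array, and for all 3 genes the stationary arrays disagreed in size or sign.

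A list of aerobic counterparts held COX5A, CYC1, HYP2, PET9, CWP1 and CWP2, and its array medians were 0.18, -0.68 and -0.74 on the mid-exponential arrays and -0.49, -0.95 and -0.18 on the stationary ones. CYC1, the aerobic cytochrome c gene and direct neighbour of ANB1 on chromosome X, was at 0.26, -1.70 and -1.96 (-1.13 ± 1.21, n = 3) in mid-exponential phase. COX5A, the aerobic partner of COX5B, was at -0.27, -1.24 and -1.46 (-0.99 ± 0.64), and HYP2, that of ANB1, at -0.11, -0.72 and -1.39 (-0.74 ± 0.64; n = 3 each). The authors' deposited table called these 3 of 6 lower in mid-exponential phase, against 4.63% of its genes. None of the 6 passed in limma in either phase, and at an unadjusted p under 0.05 COX5A was lower in the first phase (5.34% of all genes) and CWP2 in the second (10.5%).

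CWP2 and CWP1, the mannoprotein genes that DAN and TIR genes replace in anaerobic cells, differed in their calls. CWP2 was at 0.33, -0.18 and -0.09 in mid-exponential phase (0.02 ± 0.27) and at -0.44, -0.57 and -0.58 in stationary phase (-0.53 ± 0.08; n = 3 each), and the authors' deposited table called it lower in the second (adjusted p = 0.015). CWP1 was at 0.24 ± 0.30 and -0.57 ± 0.54 (n = 3 each) and was not called in either phase.

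Among 10 regulators of anaerobic genes UPC2 and ECM22 were the ones called in the authors' deposited table, 1 as higher in each phase. Over all its genes 5.67% were called higher in mid-exponential and 2.04% in stationary phase. UPC2, for the activator that responds to low sterol, was at 0.87, 0.95 and 0.97 in mid-exponential phase, a mean of 0.93 ± 0.05 (n = 3). In stationary phase UPC2 was at -0.09, -0.08 and -1.82, a mean of -0.67 ± 1.00 (n = 3). The mid-exponential values of UPC2 lay close together, and array 3 was the low one in stationary phase. Each mid-exponential value of UPC2 lay above each stationary one, where the share over all genes on all 6 arrays was 10.6%. The authors' deposited table listed UPC2 at 0.50 (adjusted p = 0.030) and -0.23 (adjusted p = 0.30). Its close relative ECM22, on chromosome XII, was at 0.50, 0.36 and 0.86 and then at 0.61, 0.82 and 0.94, above 0 on all 6 arrays. The authors' deposited table called ECM22 higher in stationary phase (0.41, adjusted p = 0.047). The part that its place on chromosome XII has in these values was not tested.

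SUT1, a regulator of sterol uptake, had its high value on 1 array, at 0.27, 2.10 and 0.64 in mid-exponential phase (1.00 ± 0.97, n = 3). None of the 10 regulators passed in limma in either phase; at an unadjusted p under 0.05 UPC2, ECM22 and SUT1 were higher in mid-exponential phase (7.95% of all genes), and ECM22 was higher (13.5%) and MGA2 lower (10.5%) in stationary phase. MOT3, CYC8 and TUP1, of the repressing side, stood at -0.30 ± 0.93, -0.29 ± 0.41 and -0.17 ± 0.11 in mid-exponential phase (n = 3 each).

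A last list held genes of sterol uptake and other anaerobic functions: AUS1, PDR11, FRD1, OSM1, OLE1, HMG2 and ARE1, of which 6 were tested. OLE1, the fatty acid desaturase gene, was at 0.10, -0.97 and -1.06 in mid-exponential phase (-0.64 ± 0.65, n = 3), again with array 1 apart from the others, and the authors' deposited table called it lower (adjusted p = 0.043). FRD1, a fumarate reductase gene, was at -0.26, 0.21 and 0.37 and then at -1.25, -0.51 and -1.15 (-0.97 ± 0.40, n = 3; limma adjusted p = 0.062 in stationary phase). PDR11, of sterol import, stood at 0.13 ± 0.29 and -0.62 ± 0.62 (n = 3 each). None of the 6 passed in limma in either phase, where 0.21 and 4.76% of all genes did. The authors' deposited table called none in stationary phase, against 4.18% of its genes.

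The spots also differ in brightness between the phases, over both strains. Each phase has its own deposited table, and whether the 2 share an intensity scale is not given. These differences in mean log2 intensity have no error and no test, and they are set against the median over all genes, -0.33. TIR1 went from 14.1 to 9.83, DAN1 from 12.2 to 9.26, TIR2 from 12.9 to 11.02, TIR3 from 12.1 to 10.1 and TIR4 from 11.9 to 10.8 in mean log2 intensity, all dimmer in stationary phase by more than that median. DAN4 went from 7.49 to 8.31. The PAU genes split evenly, with 10 above the all-gene median and 10 below, from PAU1 (-1.99) to PAU5 (2.38) in the difference of mean log2 intensity. PAU5, PAU16, PAU20, PAU7 and PAU11 became brighter by 2.38, 1.16, 1.10, 0.92 and 0.81, the highest differences among the PAU genes outside chromosome XII. ANB1, HEM13 and AAC3 became dimmer, by -2.01, -2.47 and -2.59, while CYC7 went up by 0.31.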

How the data were processed

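Total RNA was labelled and hybridised in pairs, mutant against wild type. The authors deposited a log2 ratio for every spot of an array; the submitters' processing notes name limma and R 2.9.2. How background, normalization and the spot filter were handled is not given in the sources used here. Per the file headers, the authors also deposited, for each phase, gene tables with the mean log2 intensity, log2 fold change, moderated t score and raw and adjusted p-value, plus a linear fold ratio in the stationary table. Genes that the authors called kept the sign of their table in 98.6 to 100% of cases per array, so dye-swapped arrays were already turned.

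Spots were joined to genes through the plate well. The 228 genes of row E in plates 10 to 19, whose well names could not be relied on, were left out; no member is among them. The 2 spots of a gene were averaged, with no further scaling. Symbols and gene order came from the RefSeq table of assembly R64, which held 5849 of the 6388 locus tags; no coordinates were used.

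All 6 arrays entered one limma 3.58.1 model (R 4.3.3) with a mean per phase (4 residual and 2.28 prior degrees of freedom). A gene needed 2 measured arrays in both phases to be tested, two-sided, with Benjamini-Hochberg adjustment over all 4289; a gene passed under 0.05. The fit was also run on simulated data with independent noise and added changes larger than any mean of a tested member. That run therefore does not show how often changes of the members' size would pass. Tables and plots used Python 3.11.15, pandas 2.3.3 and matplotlib 3.10.9. Replicates are separate fermentations, though some vessels served both phases.

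Values per array were printed for the 3 highest and 3 lowest PAU genes of each phase among those on all 6 arrays, and for each DAN/TIR and hypoxic gene; of the other lists, for genes called in the refit or the authors' table, and otherwise for those with the smallest p. The further genes printed (PAU1, PAU2, PAU3, PAU12, PAU15, the neighbour examples and the repressor genes) were chosen after their values were seen. The members and lists were chosen with earlier results of these data known. Sequences are not used here. Alternatives tried were a dye term, array number as a block, scaled or recentred arrays, other gene and spot filters, single arrays left out, phases fitted alone and the authors' table.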

Additional observations from a re-analysis of the deposited data

Results flagged for a closer look

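In 6 PAU genes every measured array was above 0 in mid-exponential and below 0 in stationary phase, which 2.8% of the 4289 tested genes shared. The stationary minus mid-exponential differences were -1.02 for PAU3, -1.64 for PAU6, -1.19 for PAU11, -1.11 for PAU13, -1.17 for PAU16 and, on chromosome XII, -1.03 for PAU23. PAU3 was measured on 2 stationary arrays and PAU11 on 2 mid-exponential arrays; the others had 3 in each phase. The phase difference was tested in limma for each gene, and none passed (adjusted p from 0.14 to 0.29). UPC2, the activator gene, had the same change of sign, with a difference of -1.60 (limma adjusted p = 0.29); its stationary mean rested largely on array 3. No other tested gene among the members, regulators, aerobic counterparts, sterol list or chromosome XII PAU genes had opposite signs on every array of the 2 phases. The neighbour genes and haploid markers were not searched for this. Groups of 3 arrays are too small for the test of single outlying samples.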

How the results depend on the processing

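Of 72 alternative values for the group medians 67 lay within 1 SD of the array medians, an SD that is large for the DAN/TIR and hypoxic genes. The PAU median in mid-exponential phase was 0.987 with arrays scaled to one spread. In stationary phase it was -0.083 over genes on all 6 arrays and -0.050 in the authors' deposited table. Leaving out 1 array gave 0.734 to 0.904 for PAU in mid-exponential and -0.129 to -0.047 in stationary phase (-0.061 without stationary array 2, -0.047 without stationary array 3), -0.218 to 0.088 and -0.035 to 0.405 for DAN/TIR, and -0.556 to -0.238 and -0.491 to -0.075 for the hypoxic genes. The stationary hypoxic median of -0.282 was -0.025 over genes on all 6 arrays and -0.054 in the authors' deposited table. The sign of the DAN/TIR median thus turned without mid-exponential array 2 (0.088) and without stationary array 2 (-0.035). Of 554 values for 20 members 541 moved by less than 1 SD, and 27 had the other sign. Much of this count was fixed in advance. Leaving out an array of the other phase or keeping row E wells does not change the phase mean of a member. Leaving out 1 of its own arrays cannot move that mean by 1 SD. The count for the group medians was fixed in part as well, so neither count measures robustness.

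The numbers of genes called over all genes depended strongly on the fit. In mid-exponential phase 9 were called, against 1 with a dye term, 177 with scaled arrays, 0 with each phase fitted alone, 658 in the authors' deposited table and 0 to 15 without 1 array (15 without stationary array 2, 2 without stationary array 3, otherwise 0). Beside the counts of 0, the main model had 570 genes at an unadjusted p under 0.05 in mid-exponential and 1029 in stationary phase. In stationary phase 204 were called, against 72 with a dye term, 27 with scaled arrays, 0 with the phase alone and 6 to 355 without 1 array (355 without stationary array 2, 33 without stationary array 3, and 15, 10, 6 and 11 without mid-exponential arrays 1, 2 and 3 and stationary array 1). Between phases 5 were called, against 2 with a dye term, 3 with the first spot alone and 1 to 21 without 1 array (21 without stationary array 2, otherwise 1 or 2). The array number as a replicate block gave 0, 0 and 1 calls for the 3 contrasts. Array numbers follow accession order and share vessels only in part. Across the phases the arrays numbered 3 shared both vessels, those numbered 1 the mutant vessel and those numbered 2 the wild-type vessel. The main model treated all arrays as independent. Deviations of the arrays numbered 1, 2 and 3 correlated at 0.07, 0.22 and -0.03 between phases, and only the arrays numbered 2 matched each other best. The cause of these shifts was not tested. Members passed in these fits only with scaled arrays (11 PAU genes, mid-exponential phase) and, for TIR4 in stationary phase, in 3 of them. Dim spots without a ratio limit what can be measured.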
